A study of Mus musculus with 2 samples.

Results

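Genes of iron uptake, storage, export and heme synthesis were examined in RNA-seq libraries of mouse heart with and without the Mediator subunit Med1. They are 9 genes chosen by symbol, Tfrc, Slc11a2, Fth1, Ftl1, Slc40a1, Aco1, Ireb2, Alas1 and Fech, out of 22882 gene symbols in the libraries. Each stands on a single row of both libraries. Control hearts came from Med1fl/fl mice and Med1-deficient hearts from csMed1-/- mice, which carry the same floxed Med1 alleles and were obtained with a Cre transgene driven by the promoter of α-myosin heavy chain (α-MyHC-Cre). The mice had a C57BL6/J background, were 23 days old, were of mixed sex and had received no treatment. This promoter drives Cre in cardiomyocytes. Fibroblasts, endothelial cells, macrophages and blood cells of the csMed1-/- heart should therefore keep Med1, but no cell type was measured separately. RNA of 5 hearts was pooled for each genotype and 1 library was made from each pool.

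Every value is an FPKM, a fragment count normalised for the length of the transcript and the size of the library, and there are no replicates. The variation between mice or between pools therefore cannot be estimated, and the genotypes were compared without a test. A difference is given as the ratio of csMed1-/- to control FPKM or as its log2. Genes were kept for ratios when neither library listed them at 0 and the higher of their values was at least 1 FPKM, which left 10489 genes, and a gene was counted when its ratio was beyond 2-fold. In bulk tissue, fewer cells of a type and less RNA per cell cannot be told apart.

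Cells take up iron that is bound to transferrin through the transferrin receptor and release it from the endosome through the divalent metal transporter. Iron that is not used at once is stored inside ferritin, a shell of heavy and light chains, and leaves the cell through ferroportin. The iron regulatory proteins IRP1 and IRP2 adjust this traffic after transcription. When iron is scarce they bind hairpins, called iron-responsive elements, in the mRNAs, which blocks translation where the hairpin lies in the 5' UTR and stabilizes the transferrin receptor mRNA, whose hairpins lie in the 3' UTR. In the mitochondrion iron is built into heme and iron-sulfur clusters, which cardiomyocytes need in large amounts for the respiratory chain and myoglobin. ALA synthase makes the first committed intermediate of heme and ferrochelatase inserts the iron at the last step.

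These hairpins have a conserved loop that can be searched for in sequence. GENCODE M21 transcripts of GRCm38 (the mm10 assembly) were searched on the transcript strand for a C, 5 bases, the loop CAGTGN and 5 further bases, in which the 5 bases on either side of the loop must pair and G may pair with T. In protein-coding transcripts such a match lay in a UTR of 160 of 21842 genes (0.733%). Among the 9 iron and heme genes it was found in 4, Fth1, Ftl1, Slc40a1 and Tfrc. No match was found in the UTRs of the other 5, among them the uptake gene Slc11a2. This says only that the searched form, with its pairing, is not there in this annotation, and an element of another form would be missed. The matches are shown 5′ to 3′ because, among the 4 genes with a match, they set the 5' UTR genes of storage and export apart from Tfrc. Capitals mark the bulged C and the loop.
Fth1, 5' UTR, chr19:9982733-9982759, plus strand: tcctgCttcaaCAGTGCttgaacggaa
Ftl1, 5' UTR, chr7:45459780-45459806, minus strand: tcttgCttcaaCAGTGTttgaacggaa
Slc40a1, 5' UTR, chr1:45925466-45925492, minus strand: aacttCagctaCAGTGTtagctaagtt
Tfrc, 3' UTR, chr16:32631220-32631246, plus strand: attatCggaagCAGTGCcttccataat
Tfrc, 3' UTR, chr16:32631599-32631625, plus strand: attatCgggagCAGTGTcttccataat
Tfrc, 3' UTR, chr16:32631664-32631690, plus strand: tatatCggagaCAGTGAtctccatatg
Tfrc, 3' UTR, chr16:32631711-32631737, plus strand: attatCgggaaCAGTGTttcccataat
The ferritin chains carry nearly the same element. In Tfrc the search matched 4 stretches within the 3' UTR, and elements of another form would not be counted. A match is a description of the sequence and not a measurement of binding.

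Med1 itself stood at 3.38 FPKM in control and at 0.412 FPKM without Med1, a ratio of 0.122. The sums over all rows were 780366 FPKM for control and 716365 FPKM for csMed1-/-. Depth is unknown because counts were not analysed here. Only a relative depth of 1.39 (csMed1-/- over control) was read, from the most frequent ratio among 2461 rows above 0 and at most 0.15 FPKM in both libraries. This takes that ratio as 1 fragment in each library, and only 82 of the rows lay at it, so the value is rough. The heart label was checked on 8 cardiomyocyte rows, of which 6 were kept. Of these, Tnni3, Myl2 and Tnnt2 were lower by more than 2-fold (log2 ratios of -2.74, -1.64 and -1.03), whereas Ttn, Nkx2-5 and Actn2 lay within 2-fold (-0.52, 0.37 and 0.56). Over all genes kept 18.0% were lower by more than 2-fold. Actc1 and the joint row of Myh6 and Myh7 are listed at 0 in the control library but at 9189 and 647 FPKM in csMed1-/- heart, so a 0 in these files can be a failed estimate, and none of the 9 iron and heme genes is listed at 0.

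Among the 9 genes, the iron exporter gene Slc40a1, the heme synthesis gene Alas1 and the iron regulatory gene Aco1 were lower by more than 2-fold in the csMed1-/- library, and none was higher by more than 2-fold. The ferritin genes, Slc11a2 and Fech lay within 2-fold, and Tfrc lay below its control value but also within 2-fold. Ireb2 stayed under 1 FPKM in both libraries and was not kept for ratios. The count was thus 3 lower and 0 higher of 8 genes kept (37.5% and 0.00%). Over all 10489 genes kept 18.0% were lower by more than 2-fold and 13.6% were higher, 31.5% in either direction. Slc40a1 was kept only through its control value and so had to be lower. When 1 FPKM was required in both libraries, 2 of 7 genes were lower, against 14.7% of all genes. The median log2 ratio of the 8 genes was -0.53, compared with -0.07 for all genes kept, and it was -0.22 for the 7 genes. With so few genes, 1 gene more or less changes these shares widely.

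**Figure D1:**
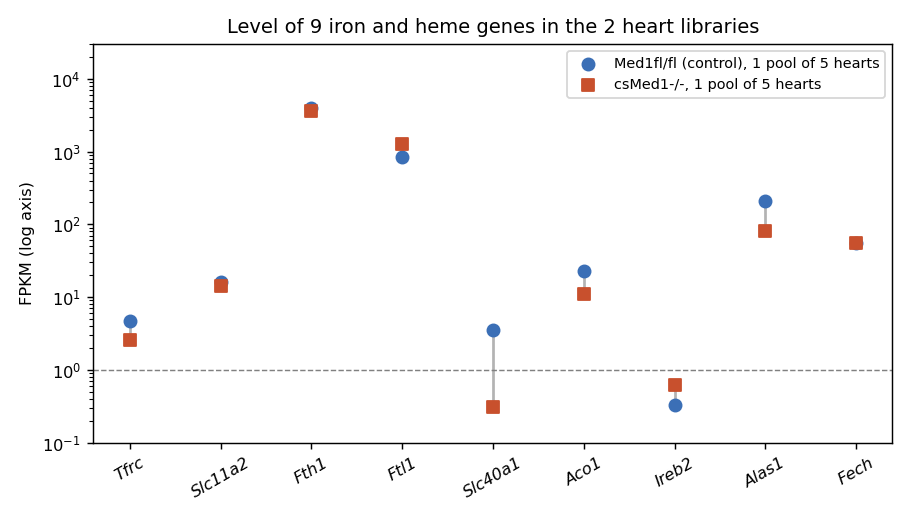
FPKM (log axis) of the 9 iron and heme genes in the control library (circles) and the csMed1-/- library (squares), each 1 pool of 5 hearts, with a grey line joining the values of a gene and a dashed line at 1 FPKM. The longest gap is that of Slc40a1, from 3.54 to 0.308 FPKM, whereas the squares of Fth1, Slc11a2 and Fech nearly cover the circles.

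The levels themselves spanned a range of 12089-fold in control and 11547-fold in csMed1-/- heart. These spans are uncertain because the lowest value was under 1 FPKM, that of Ireb2 in control and of Slc40a1 in csMed1-/- heart. In control heart the order from the highest was Fth1, Ftl1, Alas1, Fech, Aco1, Slc11a2, Tfrc, Slc40a1 and Ireb2. In csMed1-/- heart the first 4 places and the place of Tfrc were the same, whereas Slc11a2 stood above Aco1 and Ireb2 above Slc40a1. Both Ireb2 and Slc40a1 were under 1 FPKM there. Without replicates it cannot be said which neighbours in this order differ beyond their spread.

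Uptake was represented by Tfrc and Slc11a2. Tfrc (ENSMUSG00000022797, chr16:32608920-32632794, plus strand, 19 exons), which encodes transferrin receptor 1, went from 4.68 FPKM in control to 2.61 FPKM without Med1, a ratio of 0.559. This log2 ratio of -0.84 had 21.8% of all genes kept below it. Slc11a2 (ENSMUSG00000023030, chr15:100387898-100425072, minus strand, 17 exons) encodes the divalent metal transporter DMT1 and had 16.3 and 14.0 FPKM, a ratio of 0.860. Its FPKM was therefore 3.49 times that of Tfrc in control and 5.37 times in csMed1-/- heart, a comparison within each library that does not depend on library scaling. The gene overlaps Gm5475 on the opposite strand. The libraries were directional, but whether counting used the strand is not given in the sources used here.

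Ferritin mRNA was by far the most abundant of the set. Fth1 (ENSMUSG00000024661, chr19:9980598-9985098, plus strand), the heavy chain with ferroxidase activity, measured 3968 FPKM in control against 3551 FPKM in csMed1-/- heart (ratio 0.895). These values gave it rank 27 of all genes in control and rank 18 in csMed1-/- heart. Ftl1 (ENSMUSG00000050708, chr7:45457944-45459884, minus strand, 4 exons), the light chain that helps the iron core to form, had 836 and 1255 FPKM, a log2 ratio of 0.59. It was the highest ratio of the 8 genes kept, with 76.3% of all genes kept below it. The ferritin chains thus lay on opposite sides of equal levels, and both within 2-fold.

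The balance of the chains differed more than their total. Heavy over light chain FPKM was 4.74 in the control library and 2.83 in the csMed1-/- library, 1.68 times lower, whereas the chains together had 4804 and 4806 FPKM. Both genes have near-identical copies, 5 of them named Fth-ps, Ftl1-ps or Ftl2-ps in GENCODE M21, and Ftl1 overlaps a gene on the opposite strand, so reads could have been split and the values are uncertain to that extent. FPKM measures mRNA, and the 5' UTR elements shown above act on translation, which was not measured here.

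Slc40a1 (ENSMUSG00000025993, chr1:45908068-45926523, minus strand, 8 exons), which encodes the iron exporter ferroportin, had 3.54 FPKM in control heart and 0.308 FPKM in csMed1-/- heart. The control value was 11.5 times the csMed1-/- value, a log2 ratio of -3.52, and 1.12% of all genes kept lay below it. Both values are low, and after 1 FPKM was added to each the log2 ratio was -1.79, still beyond 2-fold. Within the libraries, Tfrc stood at 1.32 times the FPKM of Slc40a1 in control and at 8.50 times in csMed1-/- heart. The gap from Slc11a2 went from 4.62 to 45.7 times. Both comparisons share the low csMed1-/- value of Slc40a1, so they restate its difference and are not separate observations.

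Ferroportin is also abundant in macrophages, so macrophage genes were set beside it. Of 10 macrophage rows 9 were kept, 0 were lower by more than 2-fold and 1 was higher (Cd14, 9.44 and 23.1 FPKM), and their median log2 ratio was 0.43. The list was split, with log2 ratios below 0 in 4 rows and above 0 in 5, from -0.92 to 1.29. Their summed level was 335 FPKM in control against 384 FPKM without Med1. Slc40a1 was kept only through its control value, so the size of its decrease cannot be set against these rows. Of 6 cardiomyocyte rows kept 3 were lower by more than 2-fold and 0 were higher, with a median of -0.77. These 6 rows summed to 34470 and 11313 FPKM, a ratio of 0.328, and with the rows listed at 0 in control the csMed1-/- sum was 21149 FPKM. Of 7 endothelial genes 3 were lower by more than 2-fold and 0 were higher, and their sum was 507 and 403 FPKM. Of 8 fibroblast genes 1 was lower and 4 were higher, and their sum was 503 and 1193 FPKM. Beside these counts, 18.0% of all genes kept were lower and 13.6% were higher by more than 2-fold. The part of cell composition in the value of Slc40a1 was not tested.

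The iron regulatory proteins are encoded by Aco1 and Ireb2. Aco1 (ENSMUSG00000028405, chr4:40143081-40198338, plus strand, 21 exons) encodes IRP1, which is a cytosolic aconitase when it holds an iron-sulfur cluster. It measured 22.7 FPKM in control against 11.2 FPKM in csMed1-/- heart (ratio 0.492). That places it at the 2-fold limit, with 17.5% of all genes kept below it, and it was inside the limit after 1 FPKM was added (log2 ratio -0.96) or the ratios were centred on their median (-0.95). Ireb2 (ENSMUSG00000032293, chr9:54863789-54912530, plus strand, 22 exons) encodes IRP2, whose protein is degraded when iron is plentiful. It measured 0.328 FPKM in control against 0.630 FPKM without Med1, too low to be kept. Aco1 was the more abundant gene in both libraries, at 69.3 times the FPKM of Ireb2 in control and at 17.8 times in csMed1-/- heart. The difference between these multiples is uncertain because it rests partly on the Ireb2 values under 1 FPKM.

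**Figure D2:**
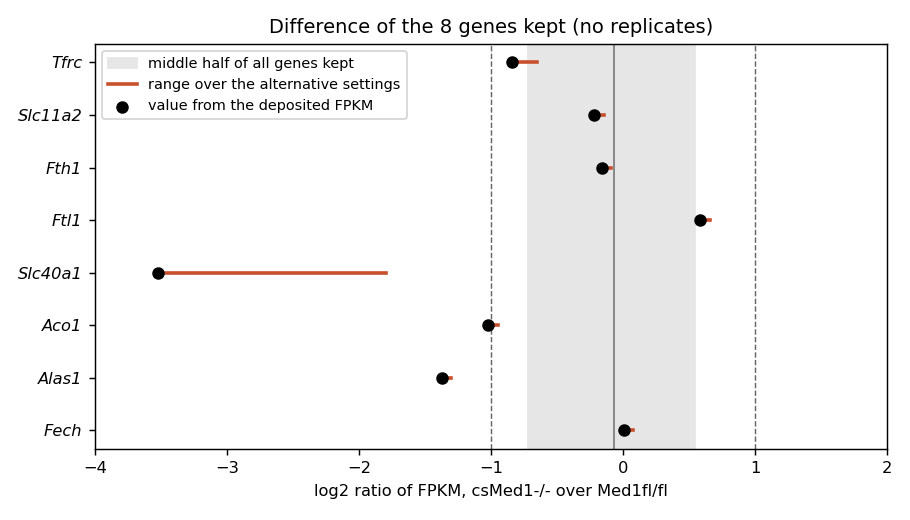
Log2 ratio of FPKM, csMed1-/- over control, for the 8 genes kept (points), with the range over the alternative settings (red lines), the 2-fold limits (dashed), the median of all genes (grey line) and the range between the quartiles of all genes, from -0.72 to 0.55 (grey band). Slc40a1 and Alas1 stay beyond 2-fold under each setting that kept them, Aco1 sits on the limit, and Ftl1 is the point farthest to the right.

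Heme synthesis was represented by its first and last enzymes. Alas1 (ENSMUSG00000032786, chr9:106233455-106248654, minus strand, 11 exons) encodes the ALA synthase of non-erythroid cells, the rate-limiting enzyme of the pathway there. It measured 209 FPKM in control against 80.8 FPKM in csMed1-/- heart (ratio 0.386), and the log2 ratio of -1.37 had 11.2% of all genes kept below it. Alas1 overlaps the antisense gene 4930500F10Rik, so its reads may not be told apart from that gene's if strand was not used.

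The promoter of Alas1 is known to be bound by nuclear respiratory factor 1 (NRF1), which recognizes a palindrome formed by GCGCA and its reverse complement. This motif was searched on both strands in the RefSeq promoter windows of GRCm38.p6, each from 250 bases before to 50 bases after a start site. It was found in 319 of 32851 windows (0.971%). Of the 9 genes, 6 had a window, and Alas1 was the 1 with the motif. The motif begins 195 bases before one annotated start of Alas1 and 29 bases after another. The stretch around it is shown because it is the only one of these motif matches among the 9 genes, with the motif in capitals.
Alas1, chr9:106247906-106247935, minus strand: cgcacccaagGCGCATGCGCggcggtcact
Among the other iron and heme genes, 62 had a window and Abcb10 was the 1 with this motif. A match does not show that NRF1 was bound in these hearts.

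Fech (ENSMUSG00000024588, chr18:64452914-64490251, minus strand, 11 exons) encodes ferrochelatase and had 55.7 and 55.9 FPKM (log2 ratio 0.01). Its log2 ratio lay between -0.02 and 0.08 over the alternative settings, so the sign of this small difference depends on the scaling. Alas1 had 3.76 times the FPKM of Fech in control heart and 1.44 times in csMed1-/- heart.

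The steps between ALA synthase and ferrochelatase were read from a list of other heme synthesis genes. The 10 genes read here were kept. By more than 2-fold, 4 were lower and 1 was higher, and their median log2 ratio was -0.41. The share that was lower was 40.0%, beside 18.0% of all genes. Alad, which joins ALA molecules into porphobilinogen, had 111 and 36.4 FPKM (log2 ratio -1.61). Cpox, coproporphyrinogen oxidase, had 6.34 and 2.36 FPKM (-1.43). Urod, the most abundant enzyme among the intermediate steps, had 143 and 137 FPKM (-0.06), and Uros and Ppox also lay within 2-fold. Of the 7 enzymes read here from Alas1 to Fech, 3 were lower by more than 2-fold, 4 were within 2-fold and 0 were higher.

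**Figure D3:**
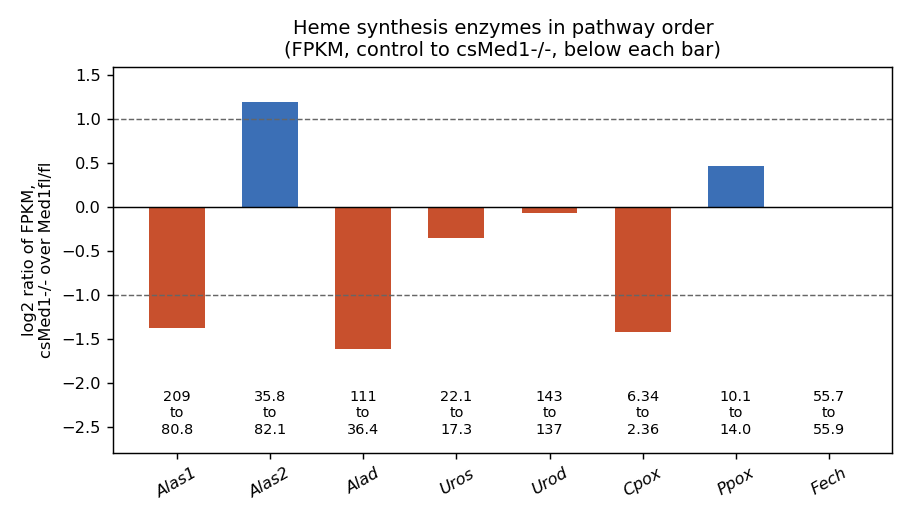
Log2 ratio of FPKM, csMed1-/- over control, for heme synthesis enzymes in pathway order, with the FPKM of both libraries under each bar, dashed lines at 2-fold and no replicates. Alas1, Alad and Cpox reach below the lower line, Alas2 lies above the upper line, and Fech at the end of the pathway shows no visible bar.

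Of the transport genes in this list, Abcb6 and Abcb10 were lower by more than 2-fold and Tmem14c and Slc25a38 lay within 2-fold. Abcb6, a porphyrin transporter, had 26.8 and 7.55 FPKM (log2 ratio -1.83), and Abcb10, a mitochondrial inner membrane transporter needed for heme synthesis, had 19.6 and 6.09 FPKM (-1.69). Tmem14c, the most abundant gene of this list, had 233 and 167 FPKM (-0.48), and Slc25a38, a mitochondrial carrier needed for heme synthesis, had 25.5 and 21.0 FPKM (-0.28).

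Alas2, the erythroid ALA synthase, was the 1 heme synthesis gene that was higher by more than 2-fold, at 35.8 FPKM in control against 82.1 FPKM in csMed1-/- heart (log2 ratio 1.20). Its 5' UTR holds a match to the iron-responsive element search at chrX:150547459-150547485, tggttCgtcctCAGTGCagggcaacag, an element known to be bound by the same proteins as those of the ferritin mRNAs. Alas1 had 5.85 times the FPKM of Alas2 in control and 0.984 times in csMed1-/- heart. Red cell rows were set beside it. The joint row of Hba-a1 and Hba-a2 had 8894 and 12084 FPKM, and the joint row of the beta globin genes had 7011 and 12718 FPKM, both within 2-fold. Of 5 red cell rows 3 were kept, 1 was higher by more than 2-fold (Slc4a1, 0.642 and 3.17 FPKM) and 0 were lower. Over all genes kept 13.6% were higher and 18.0% were lower. Slc4a1 was kept only through its csMed1-/- value and so had to be higher. The 5 rows summed to 15906 and 24806 FPKM, a ratio of 1.56. The part of red cell RNA in the values of Alas2 was not tested.

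Other genes of iron transport included none that was higher by more than 2-fold. Of 16 listed genes 15 had a row and 8 were kept, 3 of them lower by more than 2-fold and 0 higher (37.5% and 0.00%, beside 18.0% and 13.6% of all genes), with a median log2 ratio of -0.98. At 1 FPKM or more in both libraries the count was 2 of 7, beside 14.7% of all genes. Steap3, the ferrireductase that reduces iron in the transferrin endosome, had 33.6 and 5.82 FPKM, a log2 ratio of -2.53 with 2.99% of all genes kept below it. Scara5, a receptor for ferritin, had 8.18 and 1.64 FPKM (-2.31). Of the mitochondrial iron importers, Slc25a37 had 2.51 and 0.985 FPKM (-1.35), but it was kept only through its control value and so had to be lower, and Slc25a28 had 27.6 and 25.1 FPKM (-0.13). Slc39a14, a zinc and iron transporter, had a log2 ratio of -0.99, just inside 2-fold.

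The list of other storage and regulation genes held 13 genes, of which 9 were kept, 3 were lower and 0 were higher by more than 2-fold (33.3% and 0.00%, beside 18.0% and 13.6% of all genes), with a median log2 ratio of -0.55. At 1 FPKM or more in both libraries 2 of 8 were lower, beside 14.7% of all genes. Hfe2, which encodes hemojuvelin, a co-receptor for bone morphogenetic proteins that is made in striated muscle, had 193 and 94.2 FPKM (-1.04). Fbxl5, the iron-sensing subunit of the ligase that degrades IRP2, had 8.52 and 3.92 FPKM (-1.12). Hamp, the gene of hepcidin, which removes ferroportin from the cell surface, had 1.95 and 0.762 FPKM (-1.36) and was kept only through its control value. The gene with the highest FPKM in control, Pcbp1, an iron chaperone that loads ferritin, had 217 and 213 FPKM (-0.03).

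For heme breakdown and transport, 12 genes were listed, 10 had a row and 9 were kept. By more than 2-fold 2 of these were higher and 0 lower (22.2% and 0.00%, beside 13.6% and 18.0% of all genes). The median log2 ratio was 0.31. At 1 FPKM or more in both libraries 1 of 8 was higher (12.5%), near the 11.3% of all genes. There 0 of 8 were lower, beside 14.7% of all genes. With so few genes, the absence of lower genes does not set this list apart. Hmox1, the inducible heme oxygenase that releases iron from heme, measured 10.2 FPKM in control against 30.4 FPKM in csMed1-/- heart (log2 ratio 1.58). Hmox2, the constitutive form, had 47.3 and 30.4 FPKM (log2 ratio -0.64). Hmox1 thus stood at 0.215 times the FPKM of Hmox2 in control and at 1.003 times in csMed1-/- heart. Hp, the gene of haptoglobin, had 0.376 and 1.73 FPKM (2.20) and was kept only through its csMed1-/- value. Abcg2, an exporter that can carry heme and porphyrins, had 5.14 and 9.49 FPKM (0.89). Slc48a1, a heme transporter and the most abundant of these genes, had 71.2 and 92.1 FPKM (0.37).

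Genes of heme proteins and of heme maturation were 5 of 8 lower by more than 2-fold and 0 higher (62.5% and 0.00%, beside 18.0% and 13.6% of all genes), with a median log2 ratio of -1.19. Cycs, the gene of cytochrome c, had 109 and 37.7 FPKM (-1.53), and Hccs, which attaches heme to cytochrome c, had 3.51 and 1.40 FPKM (-1.32). Cox10 and Cox15, which make heme A for cytochrome oxidase, had log2 ratios of -1.50 and -1.09, and that of Cat, catalase, was -1.29. Cyc1, the most abundant of them, had 2280 and 1202 FPKM (-0.92). Myoglobin (Mb) is listed at 0 in control and at 1040 FPKM in csMed1-/- heart, and like Actc1 it was left out of the ratios.

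**Figure D4:**
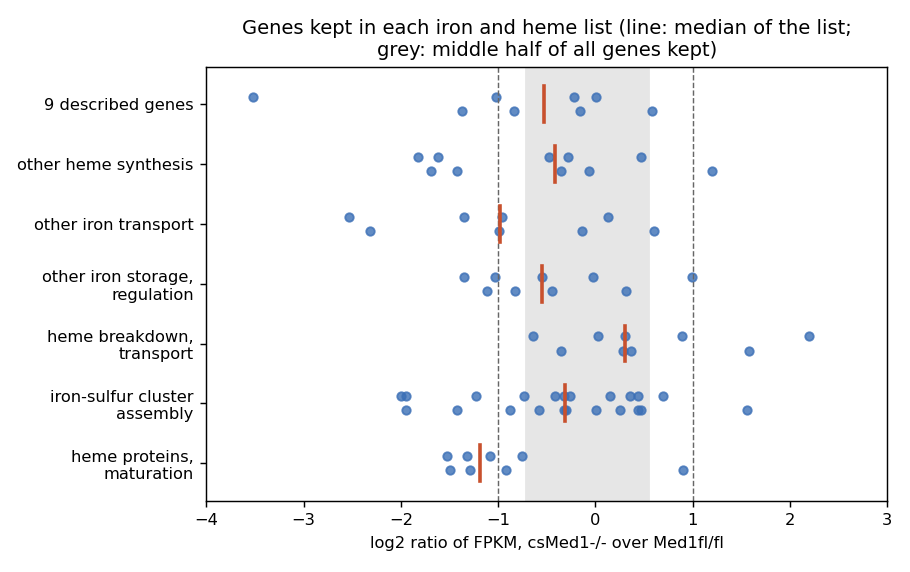
Log2 ratio of FPKM, csMed1-/- over control, for each gene kept (points) in the 9 described genes and in the 6 other lists, with the median of each list (red line), the 2-fold limits (dashed) and the range between the quartiles of all genes (grey band). The medians lie below 0 in each list but that of heme breakdown and transport, where it is 0.31.

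Over these 6 lists together 66 of 86 genes were kept. By more than 2-fold 20 of them were lower (30.3%) and 4 were higher (6.06%), beside 18.0% and 13.6% of all genes. Their median log2 ratio was -0.39. At 1 FPKM or more in both libraries 18 of 63 were lower (28.6%) and 3 were higher (4.76%), beside 14.7% and 11.3% of all genes. The genes were measured in the same pair of libraries and are not replicates of the genotype.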

How the data were processed

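Directional libraries of polyadenylated RNA, 1 per pool of 5 hearts, were sequenced from one end (50 nt). The authors deposited FPKM values, obtained from alignments to mm10 (TopHat v2.0.8b) by quantifying UCSC genes with Cufflinks v2.1.1. The submitters' processing notes also name STAR 2.4.0h and Bowtie2, with no role given. Which library scaling was used is not given in the sources used here.

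Each library has 23424 rows and 22882 symbols. Rows sharing a symbol (412 symbols) were summed, and 210 rows that carry several symbols were used only as joint marker rows. Ratios were plain ratios of csMed1-/- to control FPKM without a pseudocount. Named genes are the 9 genes, Med1 and, in each list, the most abundant gene, the 3 largest differences and genes beyond 2-fold at 10 FPKM or more. Uros, Urod, Ppox, Slc39a14, Slc25a28, Slc25a38, Bmp6, Hmox2, Iscu, Bola3, Hfe and single marker genes were named after their values were seen. The genes and lists were chosen with earlier results of these data known. The alternatives were pseudocounts of 0.1 and 1, filters, scalings, a 4-fold limit and the highest row per symbol. Hepatocyte and lymphocyte markers were checked too. Some genes of these lists are not reported here and were left out of the list counts. The ratio computation was tested on simulated data. Python 3.11.15, numpy 2.4.6, pandas 2.3.3 and matplotlib 3.10.9 were used.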

Additional observations from a re-analysis of the deposited data

How the results depend on the processing

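The 9 genes and the counts of the 6 lists were recomputed under 10 alternative settings. With a 4-fold limit in place of 2-fold, 1 of the 8 genes kept was lower (Slc40a1). In the lists 2 of 66 genes were lower and 1 was higher, beside 5.14% and 4.32% of all genes kept. The larger share of lower genes in the lists at 2-fold was thus not seen at 4-fold. The small ratio of Fech changed its sign under 2 scalings. Those of the 9 genes beyond 2-fold kept their sign, but this was fixed in advance. No setting could move a log2 ratio of that size across 0. The median of all genes moved by at most 0.0709 on the log2 scale under another scaling, and by 0.13 when only genes at 10 FPKM or more were kept. Slc40a1 was left out by that filter and by the filter of 1 FPKM in both libraries, and with 1 FPKM added its log2 ratio was -1.79. Ireb2 had a value only without a filter (0.94). Depth is unknown and limits most the genes under 5 FPKM, Tfrc, Slc40a1 and Ireb2. No paired analysis was possible because each genotype has 1 pooled library.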

Other observations

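Iron-sulfur cluster assembly, the other mitochondrial use of iron, had 22 of 25 listed genes kept, of which 5 were lower by more than 2-fold and 1 was higher (22.7% and 4.55%, beside 18.0% and 13.6% of all genes), with a median log2 ratio of -0.31. The lower share was not far above that of all genes, so the single genes are given as values only. Hspa9 and Hscb encode the chaperone pair that passes clusters on. Hspa9 had 99.9 FPKM in control against 25.01 FPKM in csMed1-/- heart (log2 ratio -1.998). Hscb had 11.5 and 2.97 FPKM (-1.95). Isca1, a late-acting assembly factor, had 176 and 45.4 FPKM (-1.95), Fdx1, a ferredoxin, had 64.1 and 23.9 FPKM (-1.43), and Nubpl, an assembly factor of complex I clusters, had 10.4 and 4.45 FPKM (-1.23). The scaffold gene Iscu had 132 and 169 FPKM (0.35), and Glrx5, the gene of the list with the highest FPKM in control, had 202 and 168 FPKM (-0.27). Nubp2, of the cytosolic assembly machinery, had 23.8 and 69.8 FPKM (1.55).

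The iron-responsive element search also matched the 3' UTR of Bola3, a late-acting cluster assembly gene with 187 and 112 FPKM (-0.73). Besides the NRF1 palindrome, the promoter windows were searched on both strands for a form of the antioxidant response element (TGACTCA followed by GCA) that is present in 51 of 32851 windows (0.155%), and for CACGTG, the E-box, in 7.15% of windows. Neither was found in the 6 windows of the 9 genes, and Hfe held the former. The E-box was in a window of 11 of the 62 other iron and heme genes with one (17.7%), beside 8.09% of all genes with a window.

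Hepatocyte and lymphocyte markers were low in both libraries. The 4 hepatocyte genes summed to 9.04 FPKM in control against 2.23 FPKM without Med1, 2 of the 3 kept being lower by more than 2-fold, although the 3 were kept only through their control values and so had to be lower, and the 4 lymphocyte genes summed to 0.260 and 0.246 FPKM with 0 kept. Of 6 smooth muscle and pericyte genes 1 was lower by more than 2-fold and 2 were higher, and their sum was 665 and 1087 FPKM. Over all genes kept the shares were 18.0% lower and 13.6% higher.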
